A study of Mus musculus with 69 samples.

Results

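Kidneys in remission were compared with nephritic kidneys at ZT0, the hour of lights on, in 11 of the 69 RNASeq libraries of the series. Every original library labelled Remission at ZT0 was taken, which gave 4 mice (s1, s3, s4 and s8), together with every original library labelled nephritis at ZT0, which gave 7 mice (CRS6LU, CRS6LL, CRS60, RX10LU, RX11LL, RX12RU and RX12LL). All were female NZB/W F1 mice, a hybrid strain in which lupus nephritis arises spontaneously, and whole kidneys were perfused before RNA was made from them. Nephritic mice were 30 to 45 weeks old and were collected some weeks after proteinuria had passed 300 mg/dl. Remission mice had become proteinuric and were then given 1 dose of cyclophosphamide at 50 mg/kg and 6 doses of CTLA4Ig (200 µg) with anti-CD40L (250 µg) over 2 weeks. These mice were 36 to 50 weeks old when treated. Their kidneys were collected 8 weeks later, and only from mice whose proteinuria had gone back to 30 mg/dl. Drugs, age and selection for a response therefore go together with the group and cannot be told apart from remission itself. The 7 young mice of ZT0, 12 weeks old, are given beside both groups as a level, with no test. The labels give 1 more remission mouse at ZT0 than the sample table published with the series, and the labels were followed. Each library is labelled as a separate mouse, and p-values measure the spread between these mice.

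In lupus nephritis, immune complexes lodge in the glomeruli, myeloid and lymphoid cells enter the kidney, and injured tubule cells switch on genes such as Havcr1 and Lcn2 while they lose their transporters. The fenestrated endothelium of glomerular and peritubular capillaries depends on vascular endothelial growth factor, made in the kidney chiefly by podocytes and tubule cells and sensed by the receptors Kdr and Flt1. Cyclophosphamide kills dividing cells, CTLA4Ig blocks the CD28 signal that T cells need, and anti-CD40L blocks the help that T cells give to B cells and macrophages.

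The remission libraries were shallower. Total counts were 20679899, 21291437, 13311278 and 18770540 in s1, s3, s4 and s8, against 29720332 to 36567793 in nephritic kidneys, with no overlap (exact two-sided permutation test, p = 0.00303, the smallest that 330 assignments allow, and 0.0174 after Benjamini-Hochberg adjustment over the family of library measures). Genes with at least 1 count numbered 17086 to 17755 in remission and 17941 to 18637 in nephritis. The share of counts on Rn45s, the precursor of ribosomal RNA, was 0.566% to 5.69% in remission, highest in s4, against 0.0679% to 0.557% in nephritis and 0.0725% to 0.167% in young kidneys. Kidney markers were present in every library: the lowest level of Lrp2, the proximal tubule endocytic receptor, was 445 CPM, and the lowest level of Umod, the secreted protein of the thick limb, was 1032 CPM.

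In 4 mice, young and nephritic, there is a second library whose name numbering runs on from that of the remission mice. These repeats were used to gauge what another run does to a gene. The labels name no sequencing run, and this numbering is the only basis for placing the repeats in the run of the remission mice. Total counts of the repeats were 29234354 and 44175692 in the young mice and 15803112 and 14991137 in the nephritic mice, beside 13311278 to 21291437 in remission. In 3 mice (ZT0LU, ZT12RU and RX12RU) the repeat correlated with its own original at r = 0.9943 to 0.9967 across genes. The library labelled as the repeat of RX11RU correlated at 0.9699 with RX11RU, a ZT12 kidney, and at 0.9948 with RX11LU, a ZT4 kidney, so it goes against its label and run values are given without that mouse unless said otherwise. With the 3 mice the median absolute shift between repeat and original was 0.10 on the log2 scale and 95% of genes lay within 0.36. Of 14789 genes tested in these mice, 1664 were lower and 1724 higher in the repeat (adjusted p of at most 0.05). With all 4 mice 3 genes were lower and 16 higher of 15214. No nephritic original is known to share the run of the remission mice, so in the main comparison run and group cannot be told apart.

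The library labelled s9, Remission at ZT12, also goes against its label. It held the clock activator Arntl at 27.0 CPM and its partner Npas2 at 15.9 CPM, inside the 23.2 to 28.7 and 10.2 to 16.7 CPM of remission at ZT0, whereas the other 3 remission libraries of ZT12 (s10, s12 and s14) read 3.20 to 4.89 and 1.57 to 2.48 CPM. The D-box activator Dbp read 7.91 CPM in s9, 6.90 to 15.6 CPM at ZT0 and 74.4 to 122 CPM in the other 3, and Per2 read 10.3, 8.13 to 13.9 and 41.0 to 74.1 CPM in that order. The library took no part in the comparison at ZT0, and each result at ZT12 is given with and without it.

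Nephritic kidneys also differed widely from one another. Lcn2, an injury gene of the distal tubule, read 120, 8.99, 711, 388, 5.36, 305 and 7.31 CPM, the counts scaled to library size, in CRS6LU, CRS6LL, CRS60, RX10LU, RX11LL, RX12RU and RX12LL. Thus 4 kidneys were high, and 3 were at or below the 7.23 to 18 CPM of remission. RX10LU alone held RNA of adrenal genes, with Cyp21a1, a steroid hydroxylase, at 431 CPM against at most 0.856 in the other nephritic kidneys, and liver genes were highest in RX10LU and RX12RU.

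Of 15586 genes tested, 1074 (6.89%) were lower and 866 (5.56%) higher in remission at an adjusted p of at most 0.05, which is the meaning of "called" from here on. Among the called genes, 882 (5.66% of those tested) lay in all 4 remission kidneys below all 7 nephritic kidneys, and 676 (4.34%) lay above. The median log2 fold change over all genes was -0.03, and 311 lower and 202 higher called genes changed at least 2-fold. These counts depended on single mice: without s1, s3, s4 or s8 the lower genes fell to 521, 494, 517 and 570 and the higher genes to 383, 341, 412 and 396, and without RX12RU 689 and 639 remained. When the run shift of the 3 repeated mice was taken off with its error, 199 genes were lower and 145 higher. Other settings called more of all genes. DESeq2 called 1949 lower and 1459 higher of 15586, and edgeR without RX12LL 1317 and 1038 of 15493. Without CRS6LL edgeR called 1235 and 970 of 15473. Counts within lists under these settings are to be read beside these totals.

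A share of the endothelial genes was higher in remission. Of 27 tested genes of endothelium and adhesion, 9 were called higher (Pecam1, Cdh5, Kdr, Flt1, Tek, Tie1, Plvap, Ednrb and Angpt2) and 1 lower (Edn1), beside 5.56% and 6.89% of all genes, and the median log2 fold change was 0.60 against -0.03 over all genes. The summed level of the list was 1362 to 1739 CPM in remission, 802 to 1415 in nephritis and 707 to 1217 in young kidneys. A wider set of 41 endothelial genes, put together after the results were seen and partly shared with the first, had 25 called higher and 0 lower with a median of 0.81. In bulk RNA, fewer cells of a type and less RNA per cell cannot be told apart.

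Kdr, the main signalling receptor for vascular endothelial growth factor (chr5:75932827-75979072, GRCm38), read 104, 93.8, 96.5 and 90.3 CPM in s1, s3, s4 and s8, and from 17.7 to 49.7 with a median of 33.4 in nephritis. The 4 remission kidneys lay close together and above every nephritic kidney, and above every young kidney as well (50.4 to 87.7). The log2 fold change was 1.59 (SE 0.22, adjusted p = 0.00187). Flt1, a receptor that also binds the growth factor (chr5:147561604-147726438), read 85.9, 79.8, 93.3 and 76.4 CPM in remission and 20.8 to 39.6, median 30.7, in nephritis. Again no kidney overlapped, and the log2 fold change was 1.56 (SE 0.17, adjusted p = 0.000616). The run shift of both genes was small, 0.01 for Kdr and 0.04 for Flt1 on the log2 scale. Flt4, the lymphatic and capillary receptor of the same family, rose by 1.00 on the log2 scale (SE 0.15, adjusted p = 0.00269).

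The promoter of Kdr is shown because Kdr has the highest log2 fold change of the 27 listed genes. It spans chr5:75978406-75978705 on the minus strand of GRCm38.p6 (RefSeq), from 250 bases before the start to 50 after, and the capitals mark the 1 match to the ETS core CCGGAA, read here on the opposite strand.
Kdr promoter: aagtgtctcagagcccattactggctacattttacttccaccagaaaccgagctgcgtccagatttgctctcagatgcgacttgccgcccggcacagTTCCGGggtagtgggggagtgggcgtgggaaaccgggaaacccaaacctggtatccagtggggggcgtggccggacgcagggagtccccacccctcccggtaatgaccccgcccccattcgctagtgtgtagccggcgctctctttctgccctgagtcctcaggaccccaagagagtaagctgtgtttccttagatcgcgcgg
The core was chosen after the results were seen, because ETS factors such as Erg act in endothelium. On either strand it stood in 27.8% of the 11959 promoters found for the genes tested, and in 9.52% (2 of 21) of those found for the 31 endothelial genes called higher. A match of 6 letters is a description and not a binding site.

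Other genes of the vessel wall followed the same order of groups. Erg, the ETS factor of endothelium, read 23.3, 26.6, 21.6 and 22.8 CPM in remission against 6.11 to 12.2 (median 9.63) in nephritis. Btnl9, a butyrophilin-like gene of capillary endothelium, read 14.6, 12.7, 9.74 and 9.92 CPM against 1.96 to 3.27. Pecam1, the adhesion molecule at endothelial junctions, read 100, 114, 107 and 121 CPM against 40.5 to 74.4. None of the 3 overlapped between the groups, and their log2 fold changes were 1.38 for Erg (SE 0.17, adjusted p = 0.000895), 2.14 for Btnl9 (SE 0.19, adjusted p = 0.000525) and 0.89 for Pecam1 (SE 0.15, adjusted p = 0.00386). Plvap, which forms the diaphragms of fenestrae, read 289, 362, 302 and 437 CPM against 73.8 to 264 (log2 fold change 1.26, SE 0.35, adjusted p = 0.0378). Esm1, secreted by glomerular and tip endothelium, read 30.3, 30.2, 27.5 and 20.4 CPM against 3.08 to 17.7 (1.81, SE 0.39, adjusted p = 0.0140). The remission level of Esm1 overlapped that of young kidneys (15 to 21.6 CPM) in s8, whereas the other 3 kidneys lay above it.

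Smaller rises were called for Ptprb, the phosphatase that restrains the angiopoietin receptor (log2 fold change 1.16), for the receptor itself, Tek (1.00), and for its ligand Angpt2 (1.44). Cdh5, the junctional cadherin, rose by 0.76, Clec14a by 1.13, Apln by 1.27, Heg1 by 1.09 and Prox1, the lymphatic regulator, by 1.68. Endothelial genes not called included Emcn (0.81, adjusted p = 0.124), Vwf (0.91, adjusted p = 0.105) and Ehd3, a glomerular endothelial gene (0.73, adjusted p = 0.0514). Edn1, the vasoconstrictor endothelin and also a target of inflammatory signals, fell by 2.53 (SE 0.74, adjusted p = 0.0458), from 3.6 to 45.5 CPM in nephritis to 3.24, 4.26, 3.27 and 3.43 CPM. The 9 called members became 4 without s3 and 10 without CRS6LL, 5 without both RX10LU and RX12RU, 5 with the run shift taken off and 1 (Flt1) in a fit that bridges the runs through the 3 repeated mice.

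**Figure D1:**
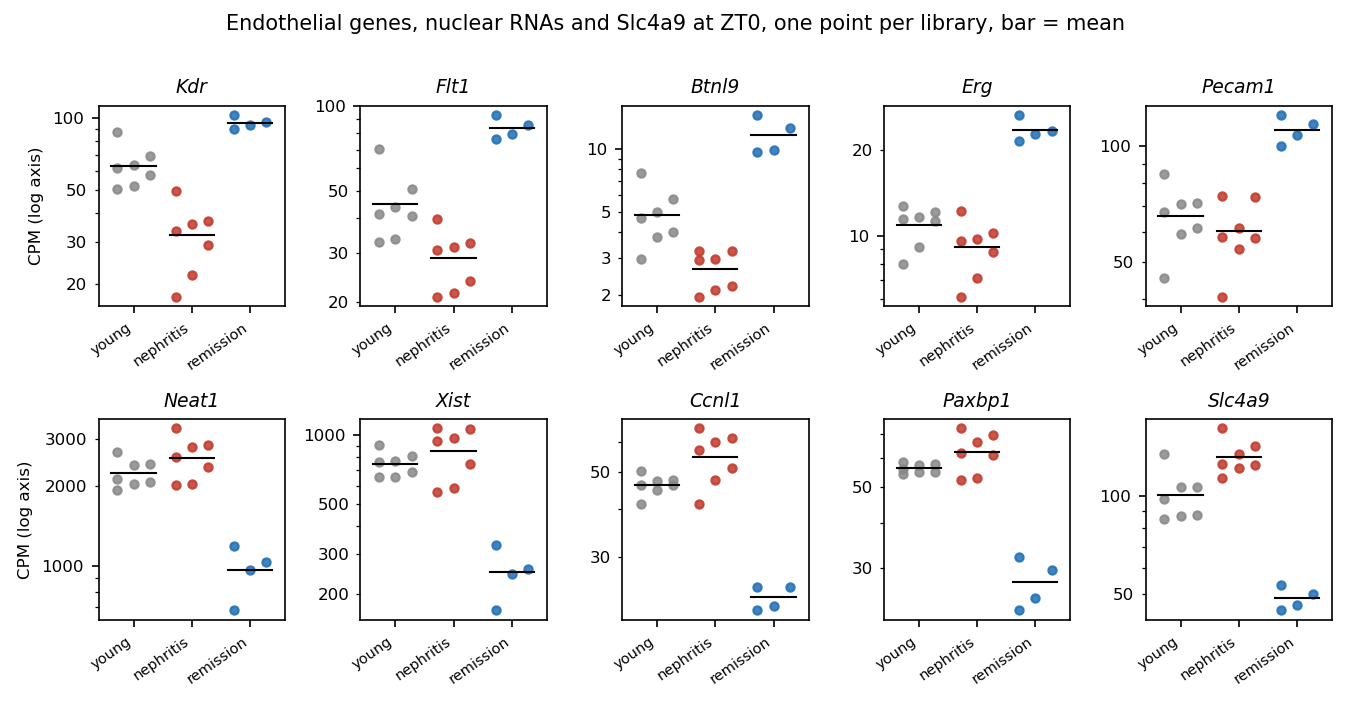
CPM on log axes of 5 endothelial genes, 4 genes of the set named nuclear-retained RNAs and Slc4a9 at ZT0. There is 1 point per library and a bar at the mean for 7 young, 7 nephritic and 4 remission kidneys. For each gene the 4 remission kidneys lie apart from the 7 nephritic kidneys, above them for the endothelial genes (Kdr 90.3 to 104 against 17.7 to 49.7 CPM) and below them for the others (Neat1 682 to 1193 against 2010 to 3299 CPM).

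A number of long noncoding RNAs of the nucleus, and of splicing-factor genes with retained introns, were lower in remission. A set of 31 such genes, named nuclear-retained RNAs here, was put together after the results were seen. Of its members 26 were called lower and 0 higher, beside 6.89% and 5.56% of all genes. The median log2 fold change was -0.86, and all 31 values were negative. Since members were picked with their values known, these counts describe the set and are no test of it. Counts are per gene symbol, so transcripts kept in the nucleus and exported messenger RNA of a gene cannot be told apart. Neat1, the scaffold of paraspeckles, read 1193, 1034, 682 and 966 CPM in remission against 2010 to 3299 (median 2575) in nephritis and 1939 to 2675 in young kidneys. Xist, which coats the inactive X chromosome, read 328, 246, 169 and 258 CPM against 560 to 1074. Both genes were lower in every remission kidney than in any nephritic or young kidney, lowest in s4, and fell by 1.39 for Neat1 (SE 0.21, adjusted p = 0.00235) and by 1.75 for Xist (SE 0.25, adjusted p = 0.00180) on the log2 scale.

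Genes of the splicing machinery made up most of the rest. Ccnl1, a cyclin that regulates splicing, read 21.8, 25.0, 22.4 and 25.1 CPM against 41.2 to 65.2 (log2 fold change -1.20, SE 0.13, adjusted p = 0.000541). Paxbp1, Pnisr, Leng8, Srsf11, Luc7l3 and the kinase Clk1 were called lower as well, with log2 fold changes of -1.17, -1.15, -1.18, -0.86, -0.86 and -0.93. Firre, a noncoding RNA that organises chromatin, fell by 1.39. Not called were Malat1 (log2 fold change -0.26), Meg3 (-2.83, with RX10LU at 40.5 CPM against at most 2.39 in the other nephritic kidneys), Kcnq1ot1 (-0.40), Son (-0.13) and Prpf4b (-0.47).

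The summed level of these RNAs was 4514 to 5257 CPM in remission, 7238 to 10310 in nephritis and 7860 to 9324 in young kidneys. Depth, the number of genes detected and the share on Rn45s moved with the same groups, and their part in this result was not tested. The median run shift of the set was -0.14 in the 3 repeated mice, and Neat1 and Xist moved by -0.23 and -0.22. With that shift taken off 17 members were called lower, and 3 in the fit that bridges the runs. Leaving out 1 library at a time gave 23 to 27.

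Slc4a9, a bicarbonate transporter of intercalated cells in the collecting duct, had the lowest p of all genes tested, and it was lower. It read 53.3, 44.6, 46.5 and 50.0 CPM in remission and 125, 126, 162, 143, 134, 122 and 114 CPM in CRS6LU, CRS6LL, CRS60, RX10LU, RX11LL, RX12RU and RX12LL. Every remission kidney lay below every nephritic kidney and below the lowest young kidney (85.3 to 135 CPM). The log2 fold change was -1.43 (SE 0.10, adjusted p = 0.00023), it ranged from -1.48 to -1.37 over 26 settings, and the run shift was 0.01. Slc4a1, the anion exchanger of acid-secreting intercalated cells and red blood cells, went the other way without being called (0.91, adjusted p = 0.176).

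Most other segment genes were not called. Among 52 genes of the thick limb and distal segments, 3 were higher (Kcnj1, Stk39 and Nr3c2) and 2 lower (Slc4a9 and Scnn1b). The shares of all genes were 5.56% and 6.89%, and the median of the list was 0.06. Kcnj1, the potassium channel of the thick limb, read 525, 594, 521 and 522 CPM against 226 to 478 (log2 fold change 0.67, SE 0.19, adjusted p = 0.0435). Stk39, the kinase that activates sodium chloride cotransport, rose by 0.37 and Nr3c2, the mineralocorticoid receptor, by 0.45. Scnn1b, a subunit of the epithelial sodium channel that this receptor acts on, fell by 0.86 (SE 0.23, adjusted p = 0.0355). At ZT12 Kcnj1, Stk39, Nr3c2 and Scnn1b had 0.65, 0.23, 0.80 and -0.16, and 0.50, 0.15, 0.78 and -0.09 without s9. Umod, the thick limb's main secreted protein, read 5908 to 7026 CPM in remission and 1032 to 4571 in nephritis, without overlap, yet missed the threshold (1.15, SE 0.37, adjusted p = 0.0602).

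Among 66 genes of proximal tubule transport and uptake edgeR called Slc20a1, a phosphate transporter, which fell by 0.97 on the log2 scale (SE 0.22, adjusted p = 0.0178). The share of all genes called lower was 6.89%. The median of the list was 0.38, and the summed level was 24620 to 31890 CPM in remission inside the 10250 to 34050 CPM of nephritis. Lrp2 read 3131, 2479, 3079 and 2368 CPM in remission and 445 to 2926 in nephritis (0.98, adjusted p = 0.166). All 4 remission kidneys lay above all nephritic kidneys for 9 of the 66 genes and below them for 1. Over all 15586 genes tested, 941 lay above and 1127 below in this way. An unadjusted p under 0.05 was reached by 19 of the 66, and by 4937 of all genes. Without RX12LL edgeR called 6 transport genes higher, beside 1038 of all 15493 genes. DESeq2 called 7 higher and 3 lower on all kidneys, beside 1459 and 1949 of all 15586 genes. Of 25 podocyte genes Col4a5, a chain of basement membrane collagen, was called, beside 6.89% of all genes lower. Its log2 fold change was -0.40 (SE 0.10, adjusted p = 0.0296). Of 9 renin-angiotensin genes 0 were called by edgeR, among them Ace (1.53, adjusted p = 0.0591) and Mme (0.75, adjusted p = 0.0682), while 3 had an unadjusted p under 0.05. Without RX12LL 2 were called higher, as with DESeq2.

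All 12 genes picked for the most negative log2 fold changes without overlap are genes of liver. A set of 59 liver genes, again put together after the results were seen, had 47 called lower and 0 higher, beside 6.89% and 5.56% of all genes. These counts describe the set and are no test of it. The median was -5.13 (-4.99 with genes at 0 set to their bound), and 9 genes called lower over the whole table had 0 counts in all 4 remission kidneys. Alb, serum albumin, read 27.4, 251, 129, 3044, 50.6, 1220 and 557 CPM in CRS6LU, CRS6LL, CRS60, RX10LU, RX11LL, RX12RU and RX12LL. In remission it read 8.03, 5.50, 6.87 and 6.34 CPM, below all nephritic and all young kidneys (24.1 to 188 CPM). The log2 fold change of Alb was -6.81 (SE 1.46, adjusted p = 0.0137), and the repeat library of RX12RU read 1149 CPM.

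Serpina3k, a liver serpin, read 0.681 to 68.2 CPM in nephritis and had 0 counts in remission. Taking 3 counts over the 4 remission libraries (0.0406 CPM) as the floor, it was at least 454-fold lower, and at least 249.6-fold lower when RX10LU was left out of the nephritic mean. Apcs, a pentraxin, had 0 counts in remission too and was at least 159-fold lower with RX10LU and 87.2-fold without it. The bounds were 157-fold and 103-fold for Cps1 of the urea cycle, 87.5-fold and 52.9-fold for Tat, which breaks down tyrosine, and 87.0-fold and 57.8-fold for Hamp2, a hepcidin. For the cytochromes Cyp2c29 and Cyp2c50 they were 102-fold and 74.8-fold, and 55.5-fold and 34.5-fold without RX10LU, but near-identical members of their family can share reads. Ahsg, Mug1, Uox, Hc and Cyp2a12, also liver genes, had at most 0.299 CPM in any remission kidney. Hp, haptoglobin, an acute phase protein, fell by 3.25 on the log2 scale (SE 0.85, adjusted p = 0.0319).

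The summed level of liver genes was 629 to 764 CPM in remission, 782 to 5970 in nephritis and 713 to 1277 in young kidneys. Leaving out 1 library gave 7 (without s3) to 46 called lower of the 59. Without RX10LU and RX12RU 28 were called, with the run shift taken off 4, and in the bridging fit 0 (edgeR in each case). Of the 54 tested at ZT12, in other mice, 4 were called lower, beside 8.93% of all genes, with a median of -1.9. Without s9 2 were called lower, beside 5.77% of all genes, with a median of -1.79. An unadjusted p under 0.05 was reached there by 29 of the 54, and by 17 without s9.

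**Figure D2:**
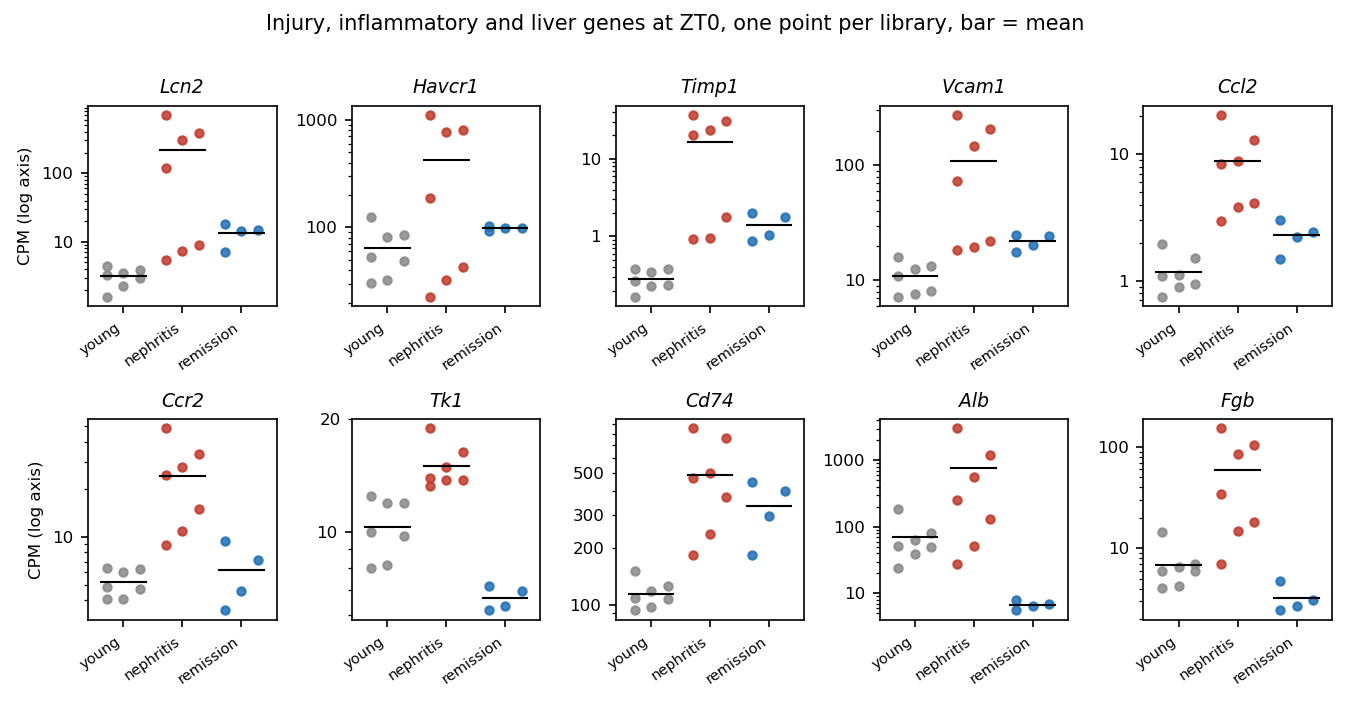
CPM on log axes of injury, inflammatory, proliferation, antigen presentation and liver genes at ZT0, with 1 point per library and a bar at the mean for 7 young, 7 nephritic and 4 remission kidneys. For Lcn2, Havcr1, Timp1 and Vcam1 the nephritic kidneys split into 4 high and 3 low ones, and the 4 remission kidneys lie below the high ones.

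Markers of injury mostly had negative values without being called, and nephritic kidneys held both high and low levels of them. Of 33 genes of tubular injury and repair 31 had negative log2 fold changes with a median of -1.39. Called lower were 3, the fibrinogen chains Fgb, Fgg and Fga, beside 6.89% of all genes. Injured tubule cells make fibrinogen and so does liver, so the 3 belong to both lists. Fgb, with log2 fold change -4.21 (SE 0.90, adjusted p = 0.0137), read 3.09, 2.43, 4.79 and 2.71 CPM in remission, all below the 7.04 to 153 CPM of nephritis. Fgg and Fga fell by 2.46 and 1.98 on the log2 scale. None of the injury genes was called by edgeR without s3, 11 were called without RX12LL, and DESeq2 called 15 on all 11 kidneys.

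Havcr1, the injury marker KIM-1 of the proximal tubule, read 186, 22.5, 799, 768, 32.7, 1113 and 42.4 CPM in CRS6LU, CRS6LL, CRS60, RX10LU, RX11LL, RX12RU and RX12LL, and 98.7, 91.8, 103 and 98.5 CPM in remission. The remission values lay between the 3 low and the 4 high nephritic kidneys, and the log2 fold change was -2.09 (SE 1.04, adjusted p = 0.190). Lcn2 had a log2 fold change of -3.99 (SE 1.39, adjusted p = 0.0766). Timp1, an inhibitor of matrix proteases, read 1.05, 0.871, 1.76 and 1.99 CPM in remission against 0.919 to 36.8 in nephritis (-3.52, SE 1.13, adjusted p = 0.0612). Vcam1, the adhesion molecule of failed tubule repair and activated endothelium, read 17.9, 20.5, 24.1 and 24.9 CPM against 18.3 to 275 (-2.30, SE 0.80, adjusted p = 0.0771). All 3 genes of the study's injury list (Vcam1, Timp1 and Lcn2) overlapped between groups, and all 3 were called lower without RX12LL. Spp1, osteopontin, had a log2 fold change of -2.71 (adjusted p = 0.0624).

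Among the 6 inflammatory genes of the study edgeR called Ccl2, and DESeq2 called 3, all lower. This chemokine, which draws monocytes, read 1.5, 2.43, 2.23 and 3.02 CPM in remission and 2.95 to 20.6 with a median of 8.34 in nephritis. The lowest nephritic kidney, RX12LL, lay below s8 and above the other 3 remission kidneys. The log2 fold change of Ccl2 was -1.92 (SE 0.54, adjusted p = 0.0391), and it was called in 3 of the 11 fits that leave out 1 library. Il1b (-0.56, adjusted p = 0.318), Ccl5 (-0.87, 0.314), Cd14 (-1.95, 0.102), Cxcl10 (-1.21, 0.0910) and Tnf (-0.68, 0.229) had negative values and did not pass.

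Ccr2, the receptor of Ccl2 on monocytes, read 3.44, 4.58, 9.50 and 7.21 CPM in remission and 8.89 to 48.7 in nephritis, with s4 above the lowest nephritic kidney. It fell by 1.96 on the log2 scale (SE 0.49, adjusted p = 0.0255). Ccl20, a chemokine for Ccr6-bearing lymphocytes, fell by 2.78 (SE 0.83, adjusted p = 0.0480). These 3 were the called members among 37 chemokines and receptors, beside 6.89% of all genes called lower, and the median of the list was -0.48. None was called lower without s1, and DESeq2 called 13 lower and 2 higher on all kidneys.

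Of 30 genes of the NF-kB pathway, a set made after the results were seen, 7 were called lower and 1 higher. The shares of all genes were 6.89% and 5.56%, and the median of the set was -0.82. The lower ones included the NF-kB regulators Nfkbiz (log2 fold change -1.83) and Nfkbid (-1.45), the kinase Ikbke (-1.26), the cytokine Clcf1 (-2.70), Ccl2 and Edn1. The higher one was Tnfaip2, which is also made by endothelium (0.83, SE 0.20, adjusted p = 0.0218). Without s1 none was called lower, and without RX12LL 12 were, as with DESeq2. Among 29 complement and Fc receptor genes C2, the protease Cfi and properdin (Cfp) were called lower, beside 6.89% of all genes. Their log2 fold changes were -0.80, -2.23 and -1.13. C3 was not called and read 56.0, 75.8, 132 and 120 CPM against 87.0 to 1573 (-2.60, adjusted p = 0.0737).

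Markers of immune cells gave few calls. The shares of all genes were 6.89% lower and 5.56% higher, and lists this short hold few calls at such shares. Among 31 macrophage and myeloid genes Ccr2 alone was lower, with a median of -0.57 and a summed level of 395 to 786 CPM in remission, 511 to 1224 in nephritis and 158 to 266 in young kidneys. Csf1r, the macrophage growth factor receptor, read 113, 117, 117 and 123 CPM, above all nephritic kidneys (60.8 to 112), with adjusted p = 0.0778. DESeq2 called 8 genes of the list lower and 1 higher, beside 1949 and 1459 of all 15586 genes. Of 13 dendritic cell genes Zbtb46, which endothelium also expresses, was called higher (0.54, SE 0.15, adjusted p = 0.0402). No gene was called by edgeR among 3 neutrophil genes (Csf3r -0.42 and Mmp9 -0.54), 31 T and NK cell genes (Maf -0.27) or 22 genes of costimulation and checkpoints (Icosl 0.10 and Cd274 0.15), where leaving out 1 library gave at most 1 call a list. Unadjusted p under 0.05 was reached by 1, 1 and 3 genes of these lists, and DESeq2 called 0, 1 and 0.

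Of 23 B and plasma cell genes 0 were called by edgeR, 1 had an unadjusted p under 0.05 and DESeq2 called 1, which was higher. The median was 0.31, against -0.34 at ZT12 and -0.24 there without s9, and the summed level was 144 to 533 CPM in remission, 161 to 408 in nephritis and 51.2 to 85.0 in young kidneys. Jchain, the joining chain of secreted antibodies, read 62.2, 173, 288 and 322 CPM in s1, s3, s4 and s8, against 49.8 to 234 in nephritis and 1.90 to 16 in young kidneys (log2 fold change 0.79, SE 0.49, adjusted p = 0.282). Thus s4 and s8 exceeded all nephritic kidneys and s1 was near the lowest. Sdc1, a plasma cell and epithelial proteoglycan, had a log2 fold change of -0.26.

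Genes of antigen presentation gave 1 call, beside 6.89% of all genes lower and 5.56% higher. Of 12 MHC class II genes 0 were called by edgeR on all kidneys or with any 1 left out, 0 had an unadjusted p under 0.05 and DESeq2 called 0, with a median of -0.49. Cd74, the invariant chain, read 183, 295, 399 and 448 CPM in remission, 184 to 858 in nephritis and 93.2 to 151 in young kidneys (-0.53, SE 0.41, adjusted p = 0.393), and H2-Eb1 had -0.76 (adjusted p = 0.237). Among 18 MHC class I and immunoproteasome genes H2-T23, a nonclassical class I molecule, was called higher (0.73, SE 0.16, adjusted p = 0.0151), from 38.9 to 67.8 CPM to 82.0, 100, 73.4 and 113 CPM.

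Of 48 interferon-stimulated genes edgeR called 1, which was higher in remission, beside 5.56% of all genes. DESeq2 called 4 lower and 1 higher, beside 1949 and 1459 of all 15586 genes. Without CRS6LL edgeR called 2 lower, beside 1235 of all 15473 genes. Rsad2, the antiviral enzyme viperin, read 32.5, 41.5, 33.8 and 40.8 CPM against 11.6 to 28.9 (median 22.2) in nephritis and 16.5 to 31.5 in young kidneys, without overlap. The log2 fold change was 0.88 (SE 0.22, adjusted p = 0.0269), while the median of the list was -0.13. Rsad2 was not called without s3 (adjusted p = 0.0897). Its promoter is shown because it is the called member of this list, from chr12:26456403-26456702 on the minus strand (GRCm38.p6, RefSeq), with the 2 matches to the interferon response core AAANNGAAA in capitals, the first on the opposite strand.
Rsad2 promoter: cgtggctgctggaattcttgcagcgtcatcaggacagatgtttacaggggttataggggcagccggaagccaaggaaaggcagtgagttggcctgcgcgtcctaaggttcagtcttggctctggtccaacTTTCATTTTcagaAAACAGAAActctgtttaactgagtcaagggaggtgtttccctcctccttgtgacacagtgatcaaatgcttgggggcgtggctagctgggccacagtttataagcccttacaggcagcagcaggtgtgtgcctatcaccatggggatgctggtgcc
The matches begin 120 and 107 bases before the start. On either strand this core stood in 9.91% of all promoters found, in 10.4% of those of genes called higher and in 9.9% of those of genes called lower. The E-box CACGTG, bound by clock factors, stood in 11% of all promoters, 11% of those of lower genes and 9.12% of those of higher genes.

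**Figure D3:**
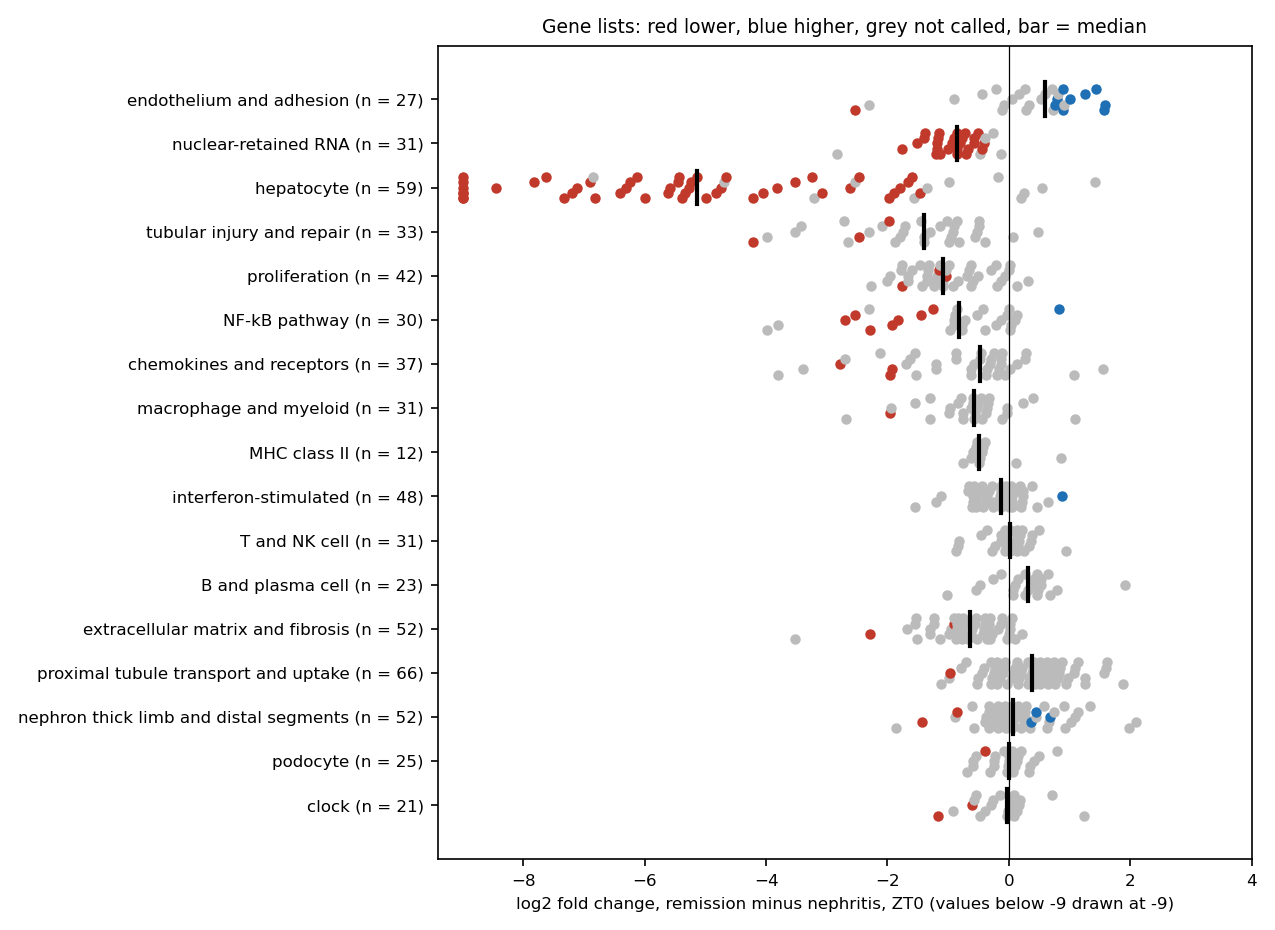
Log2 fold change of remission minus nephritis at ZT0 for the members of 17 gene lists, with 1 point per gene, red for called lower, blue for called higher, grey for not called and a bar at the median; values below -9 are drawn at -9. Endothelium sits to the right of 0 (median 0.60), and nuclear-retained RNAs (-0.86), hepatocyte genes (-5.13) and tubular injury genes (-1.39) sit to the left.

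Lists of matrix, proliferation and p53 response genes had medians below 0. Of 52 matrix and fibrosis genes edgeR called 2, both lower, beside 6.89% of all genes, and the median was -0.65. Acta2, the actin of myofibroblasts and vascular smooth muscle, had a log2 fold change of -0.91 (SE 0.27, adjusted p = 0.0458). Without CRS6LU none was called by edgeR, 7 genes were called lower without RX12LL, and DESeq2 called 10. Of 42 proliferation genes 38 had negative values, with a median of -1.09, and Tk1, Kif23 and Kif20a were called, 3 of 42 beside the 6.89% of all genes that were lower.

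Tk1, the thymidine kinase of dividing cells, read 6.18, 6.97, 7.18 and 6.34 CPM in remission against 13.2 to 18.9 (median 14) in nephritis and 8.01 to 12.5 in young kidneys. The remission kidneys lay below both other groups, and the log2 fold change was -1.16 (SE 0.12, adjusted p = 0.000541). Kif23, a kinesin of cytokinesis, fell by 1.76 on the log2 scale and Kif20a, another mitotic kinesin, by 1.04. Without s1 1 proliferation gene was called, without RX12LL 12 were, and DESeq2 called 18. Cdkn1a, the p21 inhibitor of the cell cycle, fell by 1.07 (SE 0.30, adjusted p = 0.0405), Gadd45a by 0.76 and Psrc1 by 2.12, whereas Perp, a p53 target in cell junctions, rose by 0.26 (adjusted p = 0.0364). These 4 were the called genes of 22 p53 targets, beside 6.89% of all genes lower and 5.56% higher. Without s1 none of the targets was called lower.

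Metabolic lists held few called genes, beside 6.89% of all genes lower and 5.56% higher. Among 67 genes of fatty acid oxidation and PPAR-alpha the median was 0.22. Angptl4, which inhibits lipoprotein lipase, fell by 2.08 (SE 0.45, adjusted p = 0.0142), from 14.6 to 103 CPM to 14.6, 13.9, 13.9 and 12.0 CPM. At ZT12 Angptl4 had a log2 fold change of 0.05 (adjusted p = 0.949), and 0.42 (0.132) without s9. Its interaction with time was not called (adjusted p = 0.898). Cyp4a12a and Cyp4a12b fell by 2.55 and 4.17, although reads of these near-identical fatty acid hydroxylases cannot be assigned with certainty. Cd36, the fatty acid transporter, rose by 0.86 (SE 0.21, adjusted p = 0.0248), to 126 to 149 CPM from 40.9 to 104. In glycolysis and gluconeogenesis Hk1 and Pfkl rose by 0.60 and 0.53 while the hexokinase Hk2 fell by 1.20 and the NADP enzyme Idh1 by 0.45, of 32 genes with a median of -0.03. At ZT12 Hk1, Pfkl, Hk2 and Idh1 had 0.72, 0.68, -0.02 and -0.44, and 0.66, 0.66, 0.08 and -0.49 without s9.

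In a set of 28 genes of sterol and fatty acid synthesis, made after the results were seen, 3 were higher, beside 5.56% of all genes. Elovl6, which elongates fatty acids, rose by 1.10 and Mvk, mevalonate kinase, by 0.33, and the median of the set was 0.11. Gclc, the first enzyme of glutathione synthesis, was the called gene among 24 NRF2 targets (0.73, SE 0.19, adjusted p = 0.0330), beside 5.56% of all genes higher.

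Respiratory chain subunits had a median of 0.28, with Ndufb8 (0.74, SE 0.20, adjusted p = 0.0341) and Ndufa4l2 (0.88) called of 99, beside 5.56% of all genes higher. Ribosomal protein genes had a median of -0.09, with 5 of 80 lower (Rpl22l1, Rpl23a, Rpl36a, Rpl39 and Rps27l) and 3 higher (Rpl35a, Rpl32l and Rps18), beside 6.89% and 5.56% of all genes. The 5 lower genes had differences of -0.59, -0.47, -0.58, -0.89 and -0.38 in that order and run shifts of -0.36, -0.30, -0.18, -0.52 and -0.30, and none was called by edgeR once the shift was subtracted (adjusted p of at least 0.200). Reads of these genes can be shared with their pseudogenes, and for Rpl35a and Rps18 the run shift of 1.04 and 0.71 was close to or above the difference of 1.19 and 0.60. The histone genes Hist1h1c (0.87), Hist1h2al (1.72) and Hist1h2be (1.20) were called higher of 15, beside 5.56% of all genes. Their run shifts were 0.05, 1.03 and 0.69. Rbm3, a cold-inducible RNA-binding protein, fell by 1.19 (SE 0.25, adjusted p = 0.0121), with a run shift of -0.38. None of 24 immediate early genes was called by edgeR (Jund -0.10 and Jun -0.39), and 7 had an unadjusted p under 0.05. DESeq2 called 4 lower, beside 1949 of all 15586 genes. Without CRS6LL edgeR called 3 lower, beside 1235 of all 15473 genes.

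Of 21 clock genes edgeR called 2, both lower, beside 6.89% of all genes. DESeq2 called 3 lower, beside 1949 of all 15586 genes. Per2, a repressor of the clock's positive limb, read 13.9, 12.9, 10.9 and 8.13 CPM in remission, 15 to 35.7 (median 25.8) in nephritis and 12.8 to 32.3 in young kidneys. The remission kidneys lay below all nephritic kidneys, and the log2 fold change of Per2 was -1.17 (SE 0.22, adjusted p = 0.00815). Nfil3, a repressor of D-box genes, read 21.9, 22.3, 23.5 and 26.9 CPM against 24.7 to 44.0 and fell by 0.60 (SE 0.17, adjusted p = 0.0366). It was not called without s1 (adjusted p = 0.107). Each library is a single time point, so a shift in the phase of a rhythm and a change in its level cannot be told apart.

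The other clock genes did not pass. The activators Arntl, Clock and Npas2 had log2 fold changes of 0.05, 0.09 and -0.58 (adjusted p = 0.855, 0.643 and 0.0599). Among the repressors, Per1 had -0.92, Per3 -0.27, Cry1 -0.55 and Cry2 -0.15, and the nuclear receptors Nr1d1, Nr1d2 and Rora had 1.24, 0.18 and -0.03. Nr1d1, also known as Rev-erb alpha, read 49.4, 43.2, 52.8 and 30.0 CPM against 6.77 to 42.7 in nephritis (adjusted p = 0.109). The D-box activators Dbp, Tef and Hlf had 0.71, 0.17 and 0.14, Bhlhe40 and Bhlhe41 0.09 and 0.08, Ciart -0.30, and the kinases Csnk1d and Csnk1e -0.02 and -0.40.

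Markers of other tissues were checked beside these results. Of adrenal (16), adipose (15), skeletal muscle (4), red blood cell (3) and lymph node and stroma (8) genes 0 were called by edgeR, and 6, 2, 2, 2 and 1 had an unadjusted p under 0.05. DESeq2 called 1 muscle gene and 2 red blood cell genes, all higher. The summed level of the adipose list was 162 to 566 CPM in remission and 195 to 982 in nephritis, and that of the stromal list 133 to 170 against 114 to 166. Red blood cell genes summed to 135 to 241 CPM against 36.4 to 155 and muscle genes to 11.3 to 16.9 against 3.59 to 11.3, both high in remission like the endothelial genes, and their part in that result was not tested. Highest by level were Fabp4 (log2 fold change -0.55) and Cfd (-0.36) for fat, and Myh1 (2.32, adjusted p = 0.105) and Actn3 (1.01) for muscle. For stroma they were Ltbr (0.16) and Pdpn (-0.39). In the red blood cell list Slc4a1 (adjusted p = 0.176), which intercalated cells also express, stood above Alas2 (2.86, adjusted p = 0.0804). In the adrenal list Cyp21a1 (adjusted p = 0.159) stood above Star (-3.56, adjusted p = 0.151).

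By the size of the rise the leading genes with separate groups were Rn45s, Kcng1, Kcna1, Frmpd3, Sec14l3, Elfn1, Ptpn5, Sprr2a3, Maats1, Btnl9, Cyyr1 and Lingo1. Most are scarce: Kcng1, a modifier subunit of potassium channels, read 1.30, 1.01, 1.68 and 1.18 CPM against 0.0298 to 0.316. Sec14l3, a lipid-binding protein, read 55.0, 35.1, 39.3 and 37.5 CPM in remission, 0.611 to 12.9 in nephritis and 21.6 to 65.7 in young kidneys, so that remission overlapped the young level. Its log2 fold change was 2.46 (SE 0.58, adjusted p = 0.0197). Elfn1 read 39.8, 48.2, 33.8 and 36.5 CPM against 3.78 to 17.3 (2.33, SE 0.35, adjusted p = 0.00272), with a run shift of 0.51. Cyyr1, another gene of endothelium, rose by 2.08.

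Rn45s rose by 3.54 (SE 0.78, adjusted p = 0.0150) and its run shift was 2.89 in the same direction. It read 5831, 8371, 60400 and 7167 CPM in remission and 604 to 5636 in nephritis. Hipk2, a stress kinase, rose by 1.92 with a run shift of 0.66. Igfbp5, a binding protein for insulin-like growth factors, read 735, 960, 825 and 814 CPM against 80.7 to 490 (1.60, SE 0.42, adjusted p = 0.0316), Pcsk6, a proprotein convertase, rose by 2.02, and Abcc3, an organic anion pump, by 1.62, with run shifts of 0.15, 0.04 and 0.05.

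**Figure D4:**
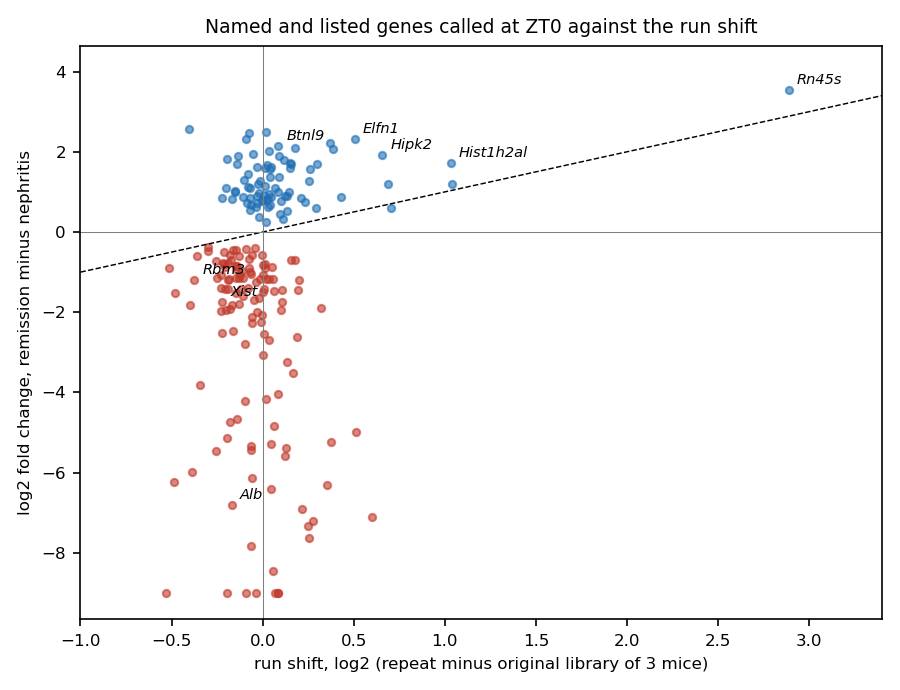
Log2 fold change of remission minus nephritis at ZT0 against the run shift, repeat minus original library of 3 mice on the log2 scale, for named and listed genes called lower (red) or higher (blue); the dashed line marks equal values, and fold changes below -9 are drawn at -9. Rn45s lies near the line, and most other genes have run shifts between -0.5 and 0.5.

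Over all 1902 called genes with a measured run shift, 24 changed sign when the shift was subtracted, and in 207 a shift of the same sign exceeded 0.5 times the difference. A fit that bridges the runs through the 3 repeated mice called 21 genes lower and 9 higher, and all 30 were called in the same direction in the main comparison. The lower ones included Slc4a9, Tk1, Ccnl1, Paxbp1, Pnisr, the centrosome gene Sfi1 (log2 fold change -1.07 in the main comparison), the splicing genes Prpf39 (-1.08) and Snrnp70 (-0.69), the histone methyltransferase Kmt5c (-0.70) and the kinesin Kif12 (-0.83).

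The 9 higher genes were Flt1, Btnl9, Kcng1, Wnt5a, its receptor Ror2, the lipid phosphatase Plpp1, Tnfsf10, Utrn and Lrrc31. Wnt5a, a ligand of noncanonical Wnt signalling, read 28.5, 29.8, 27.7 and 28.4 CPM in remission against 13.3 to 17.8 in nephritis, and Ror2 read 23.3, 20.8, 20.9 and 21.7 CPM against 6.30 to 11.4. Neither gene overlapped between the groups, and both ranges in remission were narrow. The log2 fold changes were 0.99 for Wnt5a (SE 0.09, adjusted p = 0.000525) and 1.36 for Ror2 (SE 0.15, adjusted p = 0.000661). Tnfsf10, the death ligand TRAIL, rose by 0.96, Plpp1 by 1.03, Utrn, the dystrophin relative, by 0.80 and Lrrc31 by 1.10.

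The same comparison at ZT12 rests on other mice, 4 in remission and 6 with nephritis, and there too run and group cannot be told apart. There 1382 genes (8.93% of 15481) were lower and 735 (4.75%) higher. Without s9, the library with clock levels like those of ZT0, 891 (5.77% of 15437) were lower and 397 (2.57%) higher. Of 1063 genes called lower at ZT0 and tested at ZT12, 1048 had negative values there and 591 were called lower, and without s9 these were 1038 and 440 of 1062. Of 861 called higher, 834 had positive values and 239 were called, and without s9 804 and 138 of 859. Over all genes 54.8% of values at ZT12 were negative. The difference between the time points was tested by an interaction term over the 21 mice. Of 16344 genes 0 were called by edgeR and 782 had an unadjusted p under 0.05, while DESeq2 called 1 (Tnfsf15). Without s9 edgeR called 0 of 16328, with 1109 at an unadjusted p under 0.05.

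Of 31 nuclear-retained RNAs 28 were lower at ZT12, beside 8.93% of all genes, with a median of -1.10. Without s9 28 were lower, beside 5.77% of all genes, with a median of -1.15. The set was put together after results were seen, so these counts describe it and are no test of it. Slc4a9 had a log2 fold change of -1.18 at ZT12 both with s9 (adjusted p = 0.000812) and without it (0.00499).

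At ZT12 the shares of all genes were 8.93% lower and 4.75% higher, and 5.77% and 2.57% without s9. Of 27 genes of endothelium and adhesion 1 was higher at ZT12, Plvap, with a log2 fold change of 1.29 (adjusted p = 0.0115), and 1.17 (0.0348) without s9. The median was 0.19 with and without s9, beside 0.60 at ZT0. Of the wider set of 41 endothelial genes 8 were higher and 1 lower with a median of 0.38, and 3 and 0 with a median of 0.32 without s9. Esm1 was among the higher ones, at 1.92 (adjusted p = 0.00792), and 1.95 (0.0205) without s9. Kdr and Flt1 had 1.11 and 1.12 at ZT12 (adjusted p = 0.0888 and 0.0862), and 1.02 and 1.06 without s9 (0.181 and 0.171).

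Wnt5a had a log2 fold change of 0.15 at ZT12 (adjusted p = 0.750) and -0.07 without s9 (0.897). Rsad2 had 0.13 (adjusted p = 0.797) and -0.21 (0.666). Of 99 respiratory chain subunits 24 were higher at ZT12, beside 4.75% of all genes, and 16 without s9, beside 2.57%. Differences between the time points in the share of a list that was called were not tested.

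**Figure D5:**
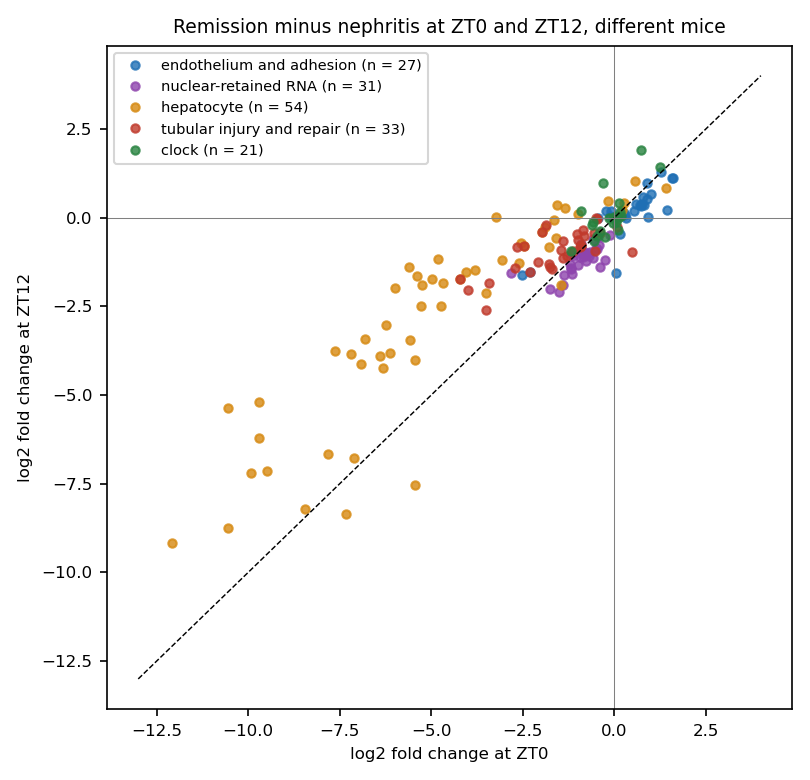
Fitted log2 fold change of remission minus nephritis at ZT12 against the same at ZT0, in different mice and with s9 included, with 1 point per gene of 5 lists and a dashed line at equal values. Most endothelial genes lie above 0 at both times and most nuclear-retained RNAs below 0, whereas most hepatocyte genes are further below 0 at ZT0 than at ZT12; the lowest of these have 0 counts in remission, and their fitted values depend on the prior count.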

How the data were processed

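Kidney RNA was selected with oligo-dT beads and sequenced with paired ends on an Illumina instrument. The authors aligned reads to the mouse genome (mm10; the submitters' processing notes name HISAT, the paper's methods Burrows-Wheeler alignment), counted uniquely aligned reads and deposited whole-number counts per gene symbol without normalization. Strand use in counting is not given in the sources used here, so overlapping and antisense genes are uncertain. Of 24538 symbols, 15 with empty cells were left out. No pair of libraries compared agreed within sampling noise.

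The tools were DESeq2 1.42.0, limma 3.58.1 and edgeR 4.0.16 in R 4.3.3. A minimum of 100 counts summed over the 11 libraries was required of a gene. Counts were then scaled by TMM and tested with edgeR's quasi-likelihood F test (two-sided, Benjamini-Hochberg over all genes, adjusted p of at most 0.05). Printed CPM use TMM factors over all 69 libraries and compare a gene between libraries, not genes with one another, since they are not scaled by length. Total counts set the precision of scarce genes. Run shifts came from the same test of repeat against original with mouse as a block. The code was tested on simulated data. Promoters came from RefSeq tables of GRCm38.p6, which held 11959 of the genes tested.

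The members, gene lists and tests were chosen with earlier results of these data known. Named genes were the 12 lowest and 12 highest log2 fold changes among called genes without overlap and with a mean of at least 1 CPM in one group, the study's inflammatory, injury and clock genes, and up to 3 called members of each list with the highest CPM, or the 2 with the highest CPM where none was called. Other genes named, among them those with means of at least 5 CPM in both groups, and the lists of liver, wider endothelial, NF-kB, nuclear-retained and sterol genes were chosen after their values were seen. Microarrays were not used here. Libraries of other time points entered the TMM factors of the printed CPM, the run shifts, the correlations of repeats and the comparison at ZT12, which was made with and without s9. The bounds without RX10LU were added after seeing the data.

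Some genes, and what rests on them, are not reported here.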

Additional observations from a re-analysis of the deposited data

Results flagged for a closer look

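In 446 tests of groups of 4 or 7 kidneys for 1 value apart from the rest (Dixon's gap), 19 stood out. Chance gives about 1 in 20 where tests are independent. Many of these values are linked, such as those of adrenal genes, so the total cannot be set against that rate. The single values are a description. In nephritis RX10LU stood apart for adrenal genes, with Cyp21a1 at 431.2 CPM (others at most 0.8556), Star at 341.2 CPM (others 4.376 to 6.625) and a summed adrenal level of 1990 CPM (others 11.06 to 17.61), and for Meg3 at 40.49 CPM. CRS6LL was low for Jun (34.57 CPM), CRS60 for Kmt5c (60.05 CPM) and CRS6LU for Utrn (56.93 CPM).

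In remission s4, the shallowest library, stood apart 6 times: high for Rn45s (60400 CPM, others 5831 to 8371), for Spp1 (2139 CPM) and for the share of counts in the 100 highest genes (24.63%, others 19.58% to 20.29%), and low for Clk1 (47.58 CPM), Rbm3 (38.08 CPM) and Ndufb8 (523.3 CPM). In s3 Kcnj1 was high (594.4 CPM), as was Tnfsf10 (74.28 CPM). Of the liver genes, 4 had counts in 1 remission kidney only, Cyp2a12 in s3 (0.04585 CPM), Hc in s8 (0.05113 CPM) and Mug1 and Uox in s1 (0.04985 CPM each), which is a single count.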

How the results depend on the processing

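The 1074 lower and 866 higher genes became 1949 and 1459 with DESeq2, 2082 and 1442 with young kidneys added to the fit, 311 and 202 with a log2 change of at least 1, and 308 and 213 at an adjusted p of 0.01. limma-voom gave 699 lower genes and the 3 CRS nephritic kidneys alone 622. Bridging the runs gave 189 and 116 with 4 repeated mice and 21 and 9 with 3, and subtracting the run shift 199 and 145. Without RX10LU and RX12RU 541 and 425 were called. Leaving out 1 library gave 494 (without s3) to 1317 (without RX12LL) lower and 341 to 1038 higher genes. Subtracting the shift, leaving out that pair and leaving out Rn45s (1073 and 865) were chosen after seeing the data. Other scaling factors, filters, thinning of counts and tools kept both counts within 1.5 times, with upper-quartile factors at 1368 and 748. At ZT12 leaving out s9 gave 891 and 397, DESeq2 gave 1 interaction gene, higher, and the run shift went from 3 and 16 genes with 4 mice to 1664 and 1724 without RX11RU. The cause of these differences was not tested.

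Of 134 called genes named here, all 134 were kept with RLE factors, 96 with limma-voom, 69 to 77 without any 1 remission kidney and 22 in the bridge of 3 mice. Among genes, Rps18 alone changed sign, to -0.079 and -0.094 in the bridges of 4 and 3 mice and -0.10 with the shift subtracted. Depth limits the scarce genes, since 3 counts over the remission kidneys are 0.0406 CPM. No paired analysis was possible because the labels give no replicate numbers and the groups hold different mice.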
